A study of Mus musculus with 7 samples.

Results

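The genes described here are 10 non-collagen matrix genes of cushion and fibroblast cells, taken by name from a count table of 23337 gene symbols: Postn, Tnc, Sparc, Cthrc1, Dpt, Lum, Dcn, Vcan, Fbln1 and Fbln2. All 10 had a row and all 10 passed the filter on low counts that left 14691 genes for testing. The table holds poly(A) RNA sequencing counts of microdissected left ventricles of mouse embryos at E12.5 (embryonic day), in 2 libraries labelled mutant and 5 control libraries. Embryos labelled mutant were Tbx5flox/flox, with loxP sites in both alleles of the T-box transcription factor gene Tbx5, and controls were Tbx5+/+. Both groups carried the allele Gt(ROSA)26Sortm1(cre/ERT2)Tyj, which makes the tamoxifen-dependent recombinase CreERT2, and in both the mothers had received tamoxifen at E11.5. CreERT2 from the Rosa26 locus is active across tissues, so the labelled deletion was not limited to the ventricle or to any cell type in it. Litter, sex and batch are not in the labels, so whether the embryos had different mothers is unknown and p-values measure the spread between these samples.

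Endocardial cushions are swellings of gelatinous matrix between endocardium and myocardium, from which valves and septa form. Endocardial cells enter this matrix and become mesenchyme, and the matrix is built first of hyaluronan and the large proteoglycan versican and later of collagens with their binding proteins. Matricellular proteins such as periostin and tenascin C act on cells more than they hold tissue together. Small leucine-rich proteoglycans such as decorin and lumican bind collagen fibrils, and fibulins link elastic fibres, basement membranes and versican.

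Library totals were 20268208 and 22680280 counts in the libraries labelled mutant and 20385656 to 24440806 in the controls. Tbx5 had 1894 and 2602 counts in mutant replicates 1 and 2, against 1542, 1695, 2165, 1297 and 1840 in control replicates 1 to 5. Whole-gene counts also cover exons that the deletion leaves in place and are no check of it, so the group names rest on the labels. Xist was at 380 and 509 CPM in the libraries labelled mutant, and at 0.689 and 1.09 CPM in control replicates 1 and 3 against 311 to 477 CPM in the other controls. No library labelled mutant was low in Xist, so the groups were not balanced on it. CPM are counts scaled to a common library total. Much of the comparison rested on mutant replicate 2: without it 12 of all genes passed the test described below, and with all libraries 200. Cardiomyocyte markers were abundant, with 14 markers summing to 49750 and 52961 CPM in the libraries labelled mutant and 45111 to 50404 CPM in the controls.

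RefSeq promoter sequence was at hand for 7 of the 10 genes. The 250 bases before the start site are shown for Postn and Dpt, both lower in the libraries labelled mutant, and for Sparc, the most abundant of the genes per exon length, which did not pass the test. Build GRCm38.p6 was used, and all sequences read 5′ to 3′ on the gene's own strand. They lie at chr3:54360857-54361106 on the plus strand for Postn, at chr1:164796413-164796662 on the plus strand for Dpt and at chr11:55420081-55420330 on the minus strand for Sparc. Capitals mark matches on either strand to TATAAA, the TATA box, and to CANNTG, the E-box, which basic helix-loop-helix factors such as TWIST1 bind.
Postn: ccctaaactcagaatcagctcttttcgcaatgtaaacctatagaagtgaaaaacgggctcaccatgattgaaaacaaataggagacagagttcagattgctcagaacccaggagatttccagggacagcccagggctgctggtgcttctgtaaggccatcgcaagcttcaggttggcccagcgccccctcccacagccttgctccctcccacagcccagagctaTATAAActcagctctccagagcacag
Dpt: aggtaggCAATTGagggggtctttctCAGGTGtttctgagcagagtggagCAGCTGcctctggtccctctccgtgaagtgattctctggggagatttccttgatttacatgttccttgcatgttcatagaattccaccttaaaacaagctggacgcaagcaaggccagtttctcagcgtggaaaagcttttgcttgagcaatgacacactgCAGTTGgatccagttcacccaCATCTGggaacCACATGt
Sparc: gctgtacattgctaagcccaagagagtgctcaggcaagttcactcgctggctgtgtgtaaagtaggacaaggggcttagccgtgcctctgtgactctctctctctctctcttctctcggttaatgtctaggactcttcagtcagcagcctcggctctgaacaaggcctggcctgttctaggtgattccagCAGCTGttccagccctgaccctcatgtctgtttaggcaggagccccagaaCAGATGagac
In the Postn window 1 TATAAA began 26 bases before the start site and there was no E-box. This was the start shared, within 50 bases, by 4 of the 9 GENCODE transcripts of the gene, and RefSeq lists another start upstream. The Dpt window held 6 E-boxes and the Sparc window 2, and neither held TATAAA. Of 32851 promoter windows of the same 250 bases, 66.2% held an E-box and 12.4% held TATAAA. The T-box half-site GGTGTGA, found in 3.33% of these windows, was in none of the windows of the 7 genes. Such matches describe letters and do not show binding.

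Of the 10 genes, 4 fell in the libraries labelled mutant and none rose. The threshold was an adjusted p of 0.05 in edgeR's quasi-likelihood test, with Benjamini-Hochberg adjustment over all genes tested. The 4 were Cthrc1, Dpt, Lum and Postn. Across all 14691 genes 1.36% passed, or were called in what follows, 0.899% lower and 0.463% higher. The balance of directions rested on mutant replicate 1: with all libraries 132 genes were lower and 68 higher, and without it 62 were lower and 151 higher. Tnc and Dcn missed the threshold while both libraries labelled mutant lay below every control, and Sparc, Vcan, Fbln1 and Fbln2 overlapped the controls. Both libraries labelled mutant were therefore below all controls for 6 of the 10, against 10.4% of all genes tested, and above all controls for none, against 9.73%. Log2 fold changes were negative for 9 of the 10 and for 51.4% of all genes tested. The median was -0.87 over the 10 genes and -0.01 over all genes. The 10 genes were chosen with earlier results of these data known, so setting them beside all genes is description and no test. In bulk tissue, fewer cells of a type and less RNA per cell cannot be told apart.

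**Figure D1:**
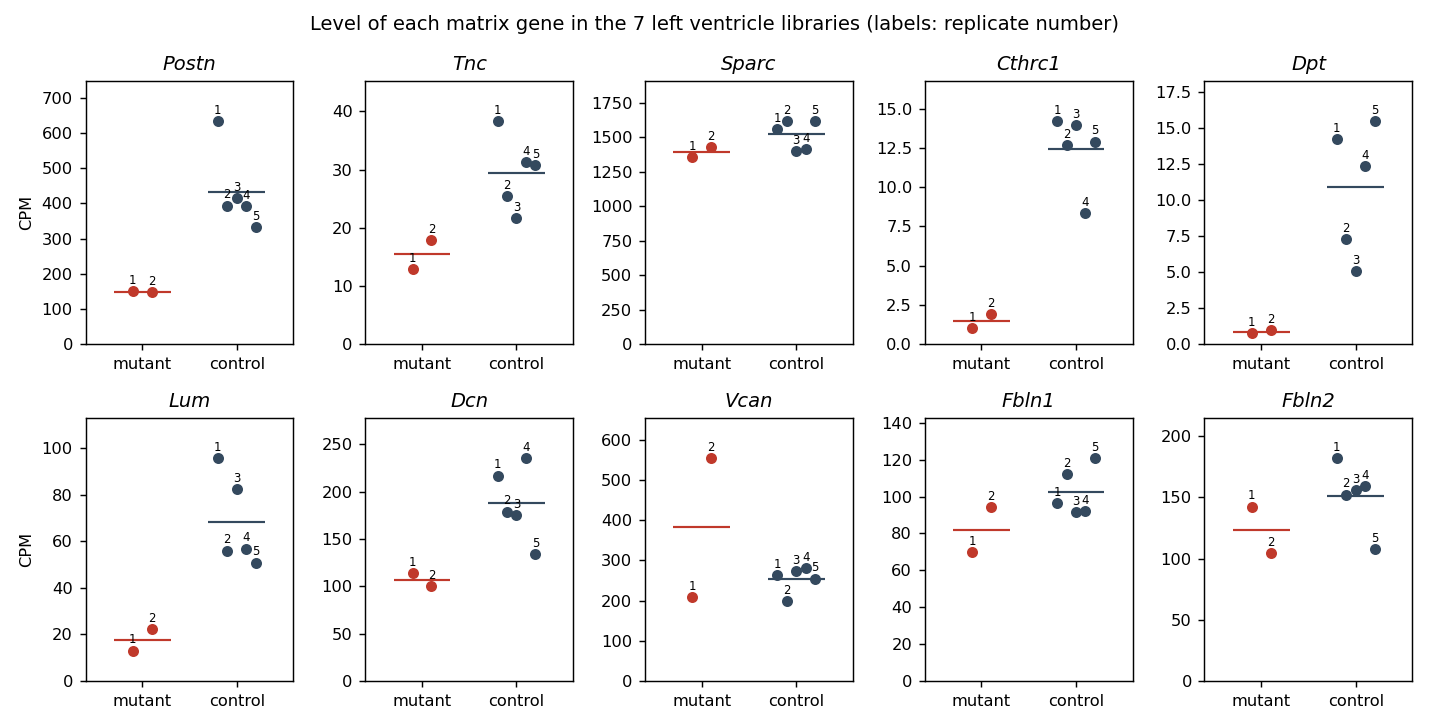
CPM of each of the 10 matrix genes (vertical axes from 0) in the 2 libraries labelled mutant and the 5 controls, 1 point per library with its replicate number and a line at the group mean. Postn, Tnc, Cthrc1, Dpt, Lum and Dcn lie below every control in both libraries labelled mutant, while Vcan is at 210 CPM in mutant replicate 1 and 555 CPM in mutant replicate 2.

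Among the matricellular genes, Postn encodes periostin, which binds integrins and collagen and takes part in collagen cross-linking and valve maturation. It lies on chromosome 3 at 54359267 to 54391041. Postn was at 151 and 147 CPM in mutant replicates 1 and 2, and at 633, 394, 416, 391 and 332 CPM in control replicates 1 to 5. The groups did not overlap, the libraries labelled mutant were nearly equal, and control replicate 1 stood above the other controls. The means were 149 ± 2.71 CPM in the libraries labelled mutant (SD, n = 2) and 433 ± 116 CPM (SD, n = 5) in the controls, 2.90-fold lower. On the log2 scale it fell by 1.54 (SE 0.22), with an edgeR quasi-likelihood adjusted p of 0.0142. With Xist as covariate the log2 fold change was -1.317, and in the libraries with Xist -1.313. The call was lost without mutant replicate 1 (edgeR adjusted p 0.0686) or mutant replicate 2 (edgeR adjusted p 0.208), while the log2 fold changes of -1.55 and -1.51 hardly moved.

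Tnc encodes tenascin C, a hexameric glycoprotein of remodelling tissue that loosens cell adhesion. It lies on chromosome 4 at 63959785 to 64047015, and 176 of its 7772 exon bases overlap a transcript of the opposite strand, whose reads cannot be told apart. Tnc was at 12.9 and 17.9 CPM in the libraries labelled mutant, against 38.3, 25.4, 21.6, 31.2 and 30.8 CPM in control replicates 1 to 5. All controls were above both, but control replicate 3 was close to mutant replicate 2. Its log2 fold change of -0.93 (SE 0.21) missed the threshold at an edgeR quasi-likelihood adjusted p of 0.0644. Without control replicate 3, the lowest control, Tnc was called at an edgeR adjusted p of 0.0379.

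Sparc encodes osteonectin, which binds collagen and calcium and acts in collagen secretion and assembly. It lies on chromosome 11 at 55394159 to 55420080. Sparc was at 1358 and 1427 CPM in the libraries labelled mutant, and at 1560, 1617, 1400, 1412 and 1616 CPM in the controls. Mutant replicate 2 lay within the control range. The log2 fold change was -0.13 (SE 0.10), with a 95% interval of -0.34 to 0.08 and an adjusted p of 0.527 in edgeR's quasi-likelihood test. Its spread over the controls was the smallest of the 10 genes, a coefficient of variation of 7.06%.

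The collagen-associated glycoprotein genes Cthrc1 and Dpt had the largest fold changes of the 10. Cthrc1 encodes a secreted protein with a collagen-like repeat that is made by activated fibroblasts and has been tied to WNT signalling through the planar polarity pathway. It lies on chromosome 15 at 39076932 to 39087121. Cthrc1 had 21 and 44 counts in the libraries labelled mutant, against 330, 267, 307, 169 and 317 counts in control replicates 1 to 5. In CPM these were 1.04 and 1.93 in the libraries labelled mutant and 8.36 to 14.2 in the controls, with control replicate 4 the lowest. The mean was 8.37-fold lower, and the log2 fold change was -3.05 (SE 0.29) with an adjusted p of 0.00208 in edgeR's quasi-likelihood test. By p it ranked 4 among the 14691 genes.

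Dpt encodes dermatopontin, a tyrosine-rich protein that binds decorin and TGF-beta and speeds the assembly of collagen fibrils. The gene lies on chromosome 1 at 164796663 to 164824274. Dpt had 16 and 22 counts in the libraries labelled mutant, against 330, 154, 111, 250 and 380 counts in control replicates 1 to 5. Even control replicate 3, the lowest, was at 5.04 CPM, while the libraries labelled mutant were at 0.793 and 0.963 CPM. The controls themselves spanned 3.07-fold, a coefficient of variation of 41.4% and the widest of the 10 genes. The mean was 12.4-fold lower and the log2 fold change -3.62 (SE 0.53), with an adjusted p of 0.0150 in edgeR's quasi-likelihood test. Dpt lost its call without mutant replicate 1 (edgeR adjusted p 0.0782) or mutant replicate 2 (edgeR adjusted p 0.219), and in limma-voom (adjusted p 0.0965). Cthrc1 was the only one of the 10 genes that kept its call without any single library and in all 21 alternative fits, with log2 fold changes of -3.56 to -2.69.

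The small leucine-rich proteoglycan genes Lum and Dcn are neighbours on chromosome 10. Dcn lies at 97479500 to 97518163 and Lum at 97565501 to 97572703, with no protein-coding gene between them in RefSeq. Lum encodes lumican, a keratan sulfate proteoglycan that limits the thickness of collagen fibrils. It was at 13.03 and 22.1 CPM in the libraries labelled mutant, and at 95.7, 56.0, 82.4, 56.8 and 50.8 CPM in control replicates 1 to 5. Every control was above both libraries labelled mutant. Control replicates 1 and 3, the highest in Lum, were the controls low in Xist. The log2 fold change of Lum was -1.96 (SE 0.31) with an adjusted p of 0.0241 in edgeR's quasi-likelihood test, and the mean was 3.89-fold lower. With Xist as covariate the log2 fold change was -1.628, and in the libraries with Xist -1.625, and Lum was called in both. Without mutant replicate 1 the log2 fold change was -1.63 (edgeR adjusted p 0.0884), and without mutant replicate 2 it was -2.38 (edgeR adjusted p 0.148).

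Dcn encodes decorin, which carries a single chondroitin or dermatan sulfate chain, binds collagen and holds TGF-beta. It was at 114 and 101 CPM in the libraries labelled mutant, against 217, 179, 176, 236 and 134 CPM in the controls. Control replicate 5, the lowest control, was still above both. Decorin's log2 fold change of -0.81 (SE 0.19) had an edgeR quasi-likelihood adjusted p of 0.0655. Without control replicate 5 it was -0.91 and called (edgeR adjusted p 0.0142). The Lum counts amounted to 11.46% and 21.97% of the Dcn counts in the libraries labelled mutant, and to 44.1%, 31.3%, 46.9%, 24.1% and 37.9% in control replicates 1 to 5. The ratio was thus lower in both libraries labelled mutant than in every control, although mutant replicate 2 came close to control replicate 4. The highest ratios were in control replicates 1 and 3, the controls low in Xist. This ratio was looked at after the values were seen and was not tested.

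Vcan, the gene of versican, was the only member with a positive log2 fold change. Versican is the hyaluronan-binding chondroitin sulfate proteoglycan of the early cushion and of cardiac jelly, and heart looping and cushion formation fail in mice without it. The gene lies on chromosome 13 at 89655309 to 89743027. Vcan was at 210 CPM in mutant replicate 1 and 555 CPM in mutant replicate 2, against 264, 199, 273, 280 and 255 CPM in control replicates 1 to 5. Mutant replicate 1 lay within the control range and mutant replicate 2 was 1.98-fold above the highest control. The log2 fold change of 0.59 (SE 0.29) did not pass, with a 95% interval of -0.07 to 1.25 and an adjusted p of 0.336 in edgeR's quasi-likelihood test. Its sign rested on mutant replicate 2: without that library the value was -0.27 (edgeR adjusted p 0.712), and without mutant replicate 1 it was 1.13 (edgeR adjusted p 0.0151). The level in mutant replicate 2 was 2.65 times that in mutant replicate 1. A ratio as high was found in 50 of 13388 genes of at least 1 CPM (0.373%).

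The partners of versican in the hyaluronan matrix were read as well, picked after their values were seen except for Ugdh. Has2, the main hyaluronan synthase of the heart, was at 1.59 and 3.06 CPM in the libraries labelled mutant and at 3.28 to 6.72 CPM in the controls, with an edgeR adjusted p of 0.0848. Hapln1, the link protein that fixes versican to hyaluronan, was at 22.7 and 27.7 CPM in the libraries labelled mutant and at 29.9 to 64.9 CPM in the controls (edgeR adjusted p 0.160). Neither overlapped the controls and neither passed. Ugdh makes UDP-glucuronate, a building block of hyaluronan and of chondroitin sulfate. It fell, with 47.9 ± 4.08 CPM in the libraries labelled mutant (SD, n = 2) and 75.6 ± 7.28 CPM (SD, n = 5) in the controls, a log2 fold change of -0.66 (SE 0.11) and an edgeR adjusted p of 0.0206. The versican-cleaving protease gene Adamts9 was at 33.5 and 58.2 CPM in the libraries labelled mutant, against 27.8 to 41.9 CPM in the controls (edgeR adjusted p 0.263). Adamts1 and Adamts5, proteases of the same family, were at 0.21 (SE 0.14) and -0.18 (SE 0.15) on the log2 scale, and Cd44, a hyaluronan receptor, at 0.05 (SE 0.16), and none of these passed. Like Vcan, Adamts9 and Adamts1 were above all controls in mutant replicate 2 and within them in mutant replicate 1. Adamts1 was at 63.5 and 90.6 CPM in mutant replicates 1 and 2 and at 60.3 to 77.1 CPM in the controls.

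Both fibulin genes were close to the controls. Fbln1 encodes fibulin-1, which binds versican and ADAMTS1 and is abundant in cushions, and lies on chromosome 15 at 85205949 to 85286294. It was at 69.8 and 94.2 CPM in the libraries labelled mutant and at 96.5, 112, 91.7, 92.1 and 121 CPM in control replicates 1 to 5. Mutant replicate 1 was below all controls and mutant replicate 2 was among them. The log2 fold change was -0.32 (SE 0.14), with a 95% interval of -0.64 to -0.005, an unadjusted p of 0.0472 and an adjusted p of 0.278 in edgeR's quasi-likelihood test. It was -0.12 with mutant replicate 1 left out, and -0.55 with mutant replicate 2 left out.

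Fbln2 encodes fibulin-2, a matrix protein made during the transition of endocardium to mesenchyme and in the epicardium and coronary vessels, and lies on chromosome 6 at 91212460 to 91272540. It was at 143 and 105 CPM in the libraries labelled mutant, against 182, 152, 156, 159 and 108 CPM in control replicates 1 to 5. The lowest values were in mutant replicate 2 and control replicate 5, which lay close together. The log2 fold change was -0.29 (SE 0.18), with a 95% interval of -0.70 to 0.11 and an adjusted p of 0.432 in edgeR's quasi-likelihood test. It was -0.53 with mutant replicate 1 left out, and -0.08 with mutant replicate 2 left out. The summed CPM of 11 epicardial markers was also lowest in these libraries, 363 in mutant replicate 2 and 415 in control replicate 5, against 494 in mutant replicate 1 and 572 to 639 in the other controls. Its part in the Fbln2 values was not tested.

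**Figure D2:**
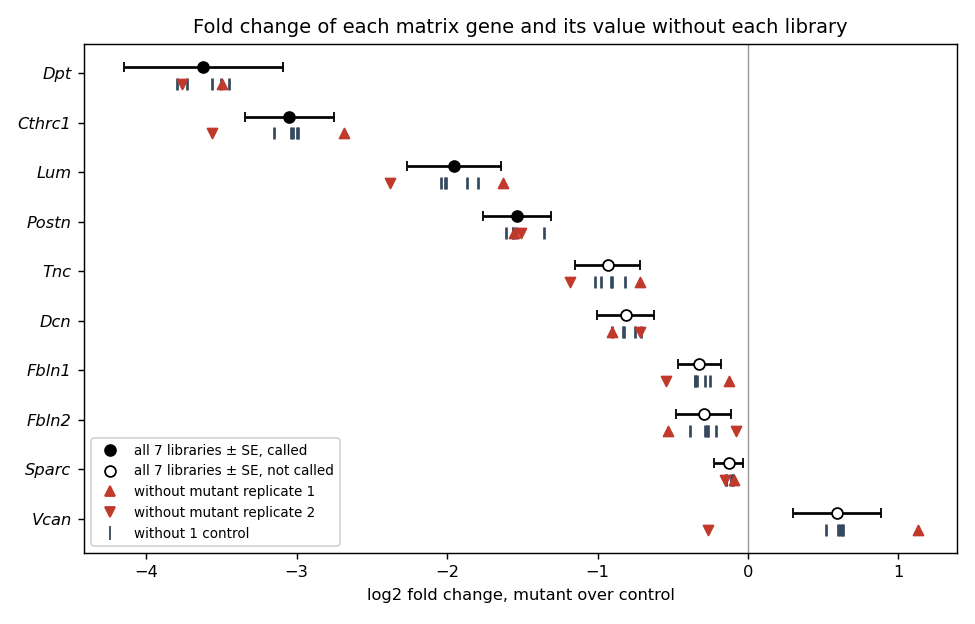
Log2 fold change of the libraries labelled mutant over the controls for each gene (horizontal axis), as the value with its SE from all 7 libraries (circles, filled where called) and the values with 1 library left out. Cthrc1 stays between -3.56 and -2.69, while Vcan, at 0.59 with all libraries, is at -0.27 without mutant replicate 2 and at 1.13 without mutant replicate 1.

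A two-sided exact permutation test, with 21 possible arrangements of the labels, gave p = 0.0476, the smallest it can give, for Postn, Tnc, Cthrc1, Dpt, Lum and Dcn. It gave an exact permutation p of 0.286 for Sparc and for Vcan, 0.190 for Fbln1 and 0.238 for Fbln2. In the authors' deposited table of 668 significant genes, 6 of the 10 were listed, the same 6 whose libraries did not overlap. The log2 fold changes in the authors' deposited table were -3.05 for Cthrc1, -3.63 for Dpt, -1.96 for Lum and -1.54 for Postn. Tnc was at -0.94 with a false discovery rate of 0.000472 in the authors' deposited table, and Dcn at -0.82 with 0.000580. The authors' deposited table does not name its test, and DESeq2 on the same counts called these 6 genes too.

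Levels of different genes were compared per kilobase of exon, with exon lengths from GENCODE, since the authors' annotation is not given in the sources used here. Each length merged the exons of all GENCODE transcripts of a gene, such as 8702 bases for Postn, 5838 for Dcn and 3788 for Sparc. Which transcripts were present was not measured, so the order between genes depends on these lengths. The comparison of 1 gene between the groups does not. Sparc led by far, at 368 ± 12.8 CPM per kilobase in the libraries labelled mutant (SD, n = 2) and 401 ± 28.4 (SD, n = 5) in the controls. In the libraries labelled mutant Vcan came next at 26.4 ± 16.9 CPM per kilobase (SD, n = 2), then Fbln2 at 19.4 ± 4.2, Fbln1 at 18.8 ± 3.96, Dcn at 18.4 ± 1.59, Postn at 17.2 ± 0.312 and Lum at 7.17 ± 2.62. Tnc followed at 1.98 ± 0.460 CPM per kilobase, then Cthrc1 at 0.931 ± 0.393 and Dpt at 0.509 ± 0.0696. In the controls Postn came second at 49.8 ± 13.4 CPM per kilobase (SD, n = 5), then Dcn at 32.2 ± 6.78, Lum at 27.9 ± 8.03, Fbln2 at 23.8 ± 4.26 and Fbln1 at 23.5 ± 3.03. Neighbours from Postn to Fbln1 overlapped in this order over the controls. Vcan followed at 17.6 ± 2.24 CPM per kilobase, then Cthrc1 at 7.79 ± 1.48, Dpt at 6.31 ± 2.61 and Tnc at 3.79 ± 0.816. Cthrc1 overlapped Dpt, and Dpt overlapped Tnc.

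Below Sparc the order thus differed between the groups. Postn held ranks 4 and 5 in mutant replicates 1 and 2, against rank 2 in all 5 controls. Tnc was above Cthrc1 and Dpt in both libraries labelled mutant and the lowest of the 10 in every control. Lum held rank 7 in both libraries labelled mutant and ranks 3 to 6 in the controls. Rank 2 went to Fbln2 in mutant replicate 1 and to Vcan in mutant replicate 2. Postn counts came to 11.1% and 10.3% of the Sparc counts in the libraries labelled mutant, and to 20.5% to 40.6% in the controls.

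**Figure D3:**
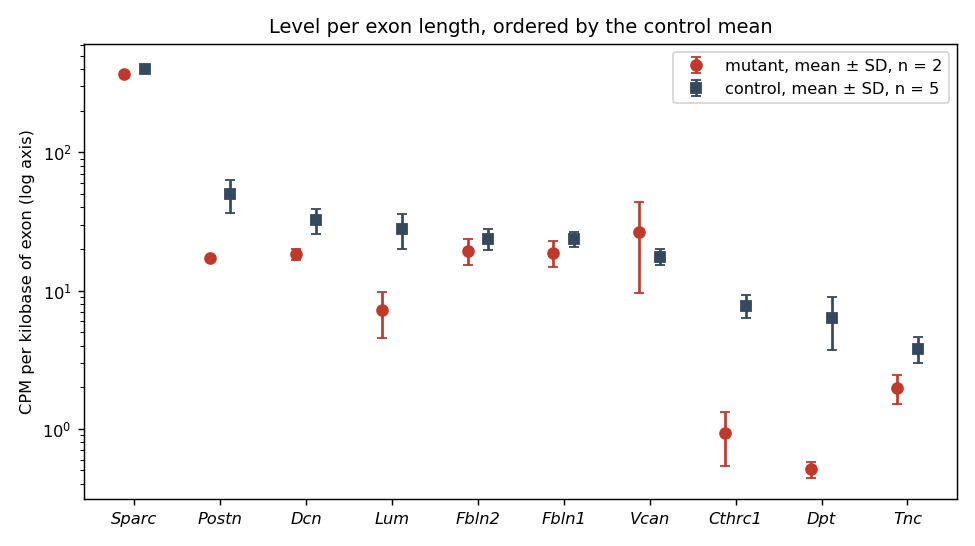
Level of each gene in CPM per kilobase of exon, with the exons of all GENCODE transcripts merged (vertical log axis). Points are the mean ± SD of the 2 libraries labelled mutant (circles) and of the 5 controls (squares), ordered by the control mean. Sparc is at about the same level in both groups, while Cthrc1 and Dpt are at 0.931 and 0.509 in the libraries labelled mutant and at 7.79 and 6.31 in the controls.

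Most of the genes varied between controls more than a typical gene. The SD of log2 CPM over the 5 controls was 0.69 for Dpt, 0.40 for Lum, 0.35 for Postn and 0.28 to 0.32 for Dcn, Tnc, Cthrc1 and Fbln2. It was 0.20 for Vcan, 0.18 for Fbln1 and 0.10 for Sparc, against a median of 0.15 over all genes tested. No single control was low throughout. Control replicate 1 was highest for Postn, Tnc, Cthrc1, Lum and Fbln2, and control replicate 5 was highest for Dpt and Fbln1 but lowest for Postn, Lum, Dcn and Fbln2.

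Some markers of mesenchyme fell too. Of 14 tested markers 4 were called lower and none higher, and all 14 log2 fold changes were negative, with a median of -0.79. Over all genes tested 0.899% were called lower and 51.4% of log2 fold changes were negative. Both libraries labelled mutant were below all controls for 12 of the 14 markers, against 10.4% of all genes tested. Meox1, a homeobox factor of mesenchyme, fell to 6.59 ± 1.19 CPM in the libraries labelled mutant (SD, n = 2), against 20.3 ± 2.96 CPM (SD, n = 5) in the controls. Twist1, a driver of the mesenchymal state, fell to 4.59 ± 0.173 CPM in the libraries labelled mutant, against 12.8 ± 3.004 CPM in the controls. Prrx2, a paired-related homeobox factor, fell by 0.64 on the log2 scale (SE 0.13) and Sox9, which drives cushion growth and cartilage-like matrix, by 0.61 (SE 0.12), with edgeR adjusted p of 0.0419 and 0.0441. The 14 markers summed to 206 and 191 CPM in the libraries labelled mutant and 288 to 353 CPM in the controls, and none was at 0 in any library. Their part in the lower matrix genes was not tested beyond the comparison that follows. The number called was 2 without control replicate 1, 2 or 3 and 1, Meox1, without mutant replicate 2.

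Each gene was also set against the mean log2 CPM of these markers, library by library. That mean was 2.85 and 2.69 in the libraries labelled mutant and 3.50 to 3.86 in the controls, a difference of -0.87. Relative to it, Dpt differed by -2.52, Cthrc1 by -2.15, Lum by -1.09 and Postn by -0.63 on the log2 scale, mutant minus control. For these 4 genes both libraries labelled mutant lay below every control also after this subtraction. Tnc differed by -0.05 and Dcn by 0.08, with the libraries overlapping the controls. Sparc, Vcan, Fbln1 and Fbln2 had differences above 0, of 0.75, 1.31, 0.54 and 0.58. Fbln1 in mutant replicate 1, at 3.274, was nearly level with control replicate 5, at 3.271. The exact two-sided permutation p was 0.0476, the smallest possible, for all but Tnc and Dcn, where it was 0.952 and 0.524. The marker mean itself had an exact permutation p of 0.0476, so a gene that stayed level would tend to lie above the controls after the subtraction. Before the subtraction the exact permutation p was 0.190 to 0.286 for Sparc, Vcan, Fbln1 and Fbln2. Their differences above 0 therefore do not show a rise of these genes. Several of these differences rested on 1 library labelled mutant. For Vcan the difference was 2.09 with mutant replicate 1 left out, and 0.52 with mutant replicate 2 left out. Fbln1 was then at 0.84 and 0.24, Lum at -0.62 and -1.55, and Tnc turned its sign, at 0.27 and -0.37. Dcn was at -0.03 without control replicate 5, and Tnc at 0.01 without control replicate 4.

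**Figure D4:**
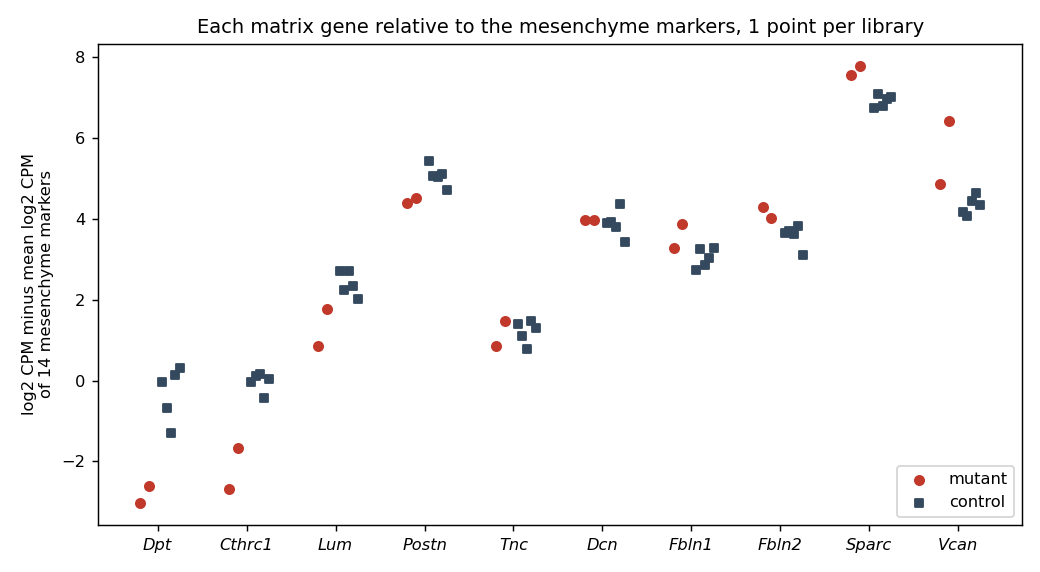
Log2 CPM of each gene minus the mean log2 CPM of 14 mesenchyme markers (vertical axis), 1 point per library, for the libraries labelled mutant (circles) and the controls (squares). Dpt, Cthrc1, Lum and Postn lie below all controls, and Tnc and Dcn overlap them. Sparc, Vcan, Fbln1 and Fbln2 lie above, with Fbln1 in mutant replicate 1 nearly level with control replicate 5.

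Other genes of the cushion matrix and its signals were read from lists of related genes. Of 116 tested genes in these lists, 6 were called lower and none higher, 80 log2 fold changes were negative, and the median was -0.20. Both libraries labelled mutant were below all controls for 31 of them and above all for 3, against 10.4% and 9.73% of all genes tested. Over all genes tested 0.899% were called lower and 0.463% higher. The count of 6 rested on single libraries: it was 3 without control replicate 1, 2 without control replicate 2 and 0 without mutant replicate 2. Without mutant replicate 1, 2 were lower and 2 higher, and with the replicate block 21 were lower and 2 higher.

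Among 17 other matricellular genes 3 were called lower. Mgp, the matrix Gla protein that keeps soft tissue from calcifying, was at 29.9 ± 0.887 CPM in the libraries labelled mutant (SD, n = 2) and 60.9 ± 9.84 CPM (SD, n = 5) in the controls. Smoc2, a calcium-binding relative of SPARC, was at 15.8 ± 0.735 CPM in the libraries labelled mutant and 34.7 ± 7.35 CPM in the controls. Wisp1, a CCN family member, was at 34.2 ± 8.13 CPM in the libraries labelled mutant and 63.8 ± 8.60 CPM in the controls. Their edgeR adjusted p were 0.0125, 0.0240 and 0.0290. The median of the 17 was -0.23. Thus Smoc2 was called while Sparc, of the same family, was not, a difference that was not itself tested.

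Of 17 other fibulin and elastic fibre genes, Mfap2, a microfibril glycoprotein, was called lower at a log2 value of -0.61 (SE 0.10, edgeR adjusted p 0.0240), and the median was -0.27. The fibrillin genes Fbn2 and Fbn1, the most abundant in the list, stood at -0.26 (SE 0.12) and -0.15 (SE 0.15) and did not pass. Without mutant replicate 1 Fbn2 was at -0.03 and Fbn1 at 0.17, and without mutant replicate 2 they were at -0.51 and -0.53. None of 8 other small leucine-rich proteoglycan genes was called by edgeR, although 7 log2 fold changes were negative, with a median of -0.47. Biglycan, the close relative of decorin encoded by Bgn, was at -0.39 (SE 0.12, edgeR adjusted p 0.143), and fibromodulin, encoded by Fmod, at -0.53 (SE 0.27, edgeR adjusted p 0.345). Fmod was at -1.03 with mutant replicate 1 left out, and -0.14 with mutant replicate 2 left out.

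Of 15 genes of large proteoglycans and hyaluronan, 2 were called lower, Ugdh as given above and Gpc3, a cell surface heparan sulfate proteoglycan, at -0.44 (SE 0.09, edgeR adjusted p 0.0471). The median of that list was 0.05. None of 22 genes of matrix processing was called, with a median of -0.24, and the collagen chaperone gene Serpinh1 and the cross-linking enzyme gene Loxl2 were at -0.10 (SE 0.11) and 0.004 (SE 0.13). None of 17 receptor genes for these matrix proteins was called. Their median was -0.08, with Itgb1, the beta-1 integrin of most matrix receptors, at -0.07 (SE 0.11) and the collagen receptor gene Ddr1 at -0.27 (SE 0.10). None of 20 TGF-beta, BMP and Notch pathway genes of the cushion was called, at a median of -0.14, with the BMP receptor gene Bmpr1a at 0.05 (SE 0.11) and the Notch target Hey2 at -0.12 (SE 0.10).

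**Figure D5:**
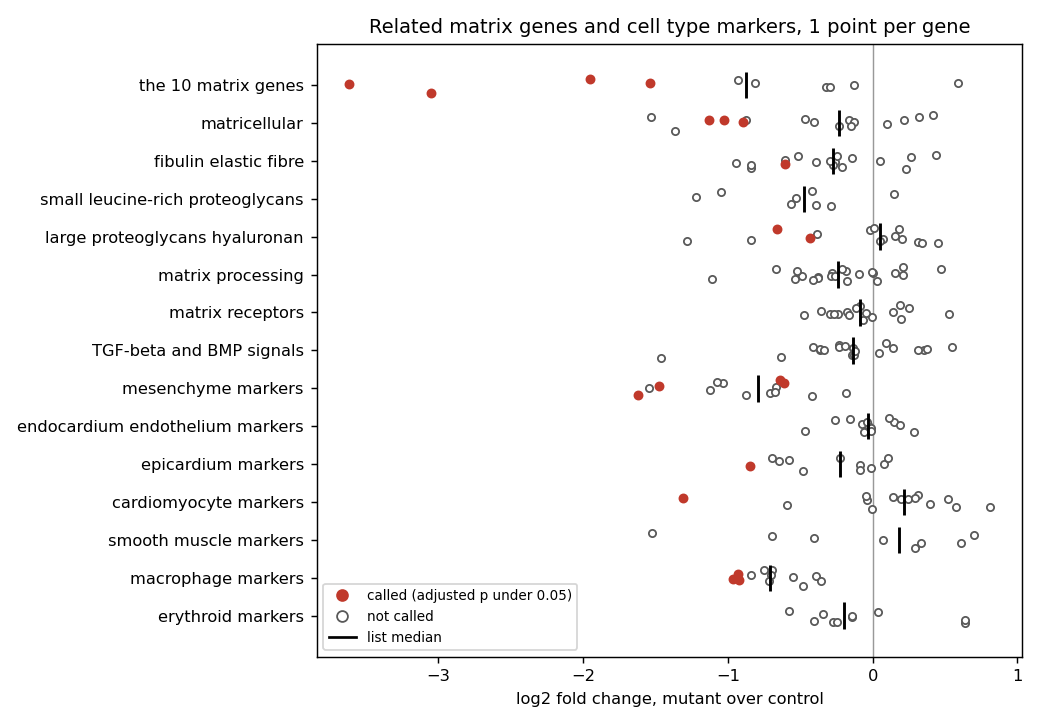
Log2 fold change of the libraries labelled mutant over the controls (horizontal axis), 1 point per tested gene, for the 10 matrix genes, related matrix and signal genes and cell type markers, with filled points for called genes and a bar at each list median. The 10 matrix genes have a median of -0.87, mesenchyme markers -0.79, macrophage markers -0.71 and endocardial markers -0.03.

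Markers of other cell types were read in the same way. None of 14 endocardial and endothelial markers was called, their median was -0.03, and they summed to 972 and 1418 CPM in the libraries labelled mutant and 1041 to 1512 CPM in the controls. Eng and Cdh5, endothelial surface proteins, were at 0.19 (SE 0.18) and -0.04 (SE 0.18) on the log2 scale. Cdh5 was at 0.28 with mutant replicate 1 left out, and -0.44 with mutant replicate 2 left out. Mutant replicate 2, the library with high Vcan, had more of these markers than mutant replicate 1, but control replicate 5 had the highest sum with Vcan at 255 CPM. Their part in the Vcan values was not tested.

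Of 12 macrophage markers 3 were called lower, all 12 log2 fold changes were negative and the median was -0.71. The shares over all genes tested were 0.899% called lower and 51.4% negative. For 8 of the 12 both libraries labelled mutant were below all controls, against 10.4% of all genes tested. C1qa, a subunit of complement C1q, was at 9.46 ± 2.18 CPM in the libraries labelled mutant (SD, n = 2) and 17.9 ± 1.72 CPM (SD, n = 5) in the controls, and C1qc, another subunit, and the lysozyme gene Lyz2 fell by 0.97 (SE 0.18) and 0.93 (SE 0.19) on the log2 scale. The list summed to 196 and 135 CPM in the libraries labelled mutant and to 205 to 290 CPM in the controls. Of 11 epicardial markers Krt19 was called lower at -0.85 (SE 0.10), with a median of -0.22, and Upk3b was at -0.48 (SE 0.29). Of 14 cardiomyocyte markers Myl7, the atrial light chain, was called lower at -1.31 (SE 0.25), with a list median of 0.22, Actc1 at -0.04 (SE 0.08) and Myh7 at 0.57 (SE 0.14). None of 8 smooth muscle and none of 10 erythroid markers was called, with medians of 0.18 and -0.19. The smooth muscle list summed to 3779 and 3188 CPM in the libraries labelled mutant and to 2145 to 3171 CPM in the controls. Acta2 and Des were at 0.61 (SE 0.25) and 0.29 (SE 0.13), and Hbb-y and Hba-a1 at -0.34 (SE 0.30) and 0.64 (SE 0.34). Together these other cell type lists had 5 called genes, of which 1 was left without control replicate 1 or 2, 3 without control replicate 3 and none by edgeR without mutant replicate 2. The part of these cell types in the matrix genes was not tested.

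Genes whose pattern over the 7 libraries was nearest to that of Postn were found by the mean absolute difference of centred log2 CPM, over 13378 genes of at least 1 CPM. They were Moxd1 (0.14), Angpt1 (0.16), Pcdh20 (0.17), Lrrc17 (0.17) and Col1a1 (0.18), in which each value is that mean difference in log2 units. Col1a1, the alpha-1 chain of type I collagen, was at 227 CPM on average in the libraries labelled mutant and 583 CPM in the controls. Among the genes nearest to the mean profile of the 10 were Angpt1 (0.08), Cd40 (0.11), Tmem26 (0.12) and Papss2 (0.12). Papss2 makes the sulfate donor used for proteoglycan chains and was at 6.05 CPM on average in the libraries labelled mutant and 11.51 CPM in the controls. Col1a1 and Papss2 were picked for their pattern over these same libraries, so their lower levels follow from the choice. Among the 10 genes themselves, Sparc and Fbln1 were the closest pair at 0.11, then Dcn and Fbln2 at 0.20 and Postn and Lum at 0.21. Dpt and Vcan were the farthest pair at 1.56.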

How the data were processed

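The authors' deposited table of counts gives raw whole-number reads for each gene symbol in each library. The submitters' processing notes name build mm10 with featureCounts, TopHat2 2.1.1, limma 3.30.13, edgeR 3.16.5 and R 3.3.2. What each did, the gene annotation, strand use and the handling of multiply aligned reads are not given in the sources. Per the labels' protocols the library kit was one that does not mark strand. The authors' deposited table gives p-values, false discovery rates up to 0.05 and fold changes read here as log2, since they nearly equal those from the counts.

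The tests used edgeR 4.0.16 in R 4.3.3: filterByExpr with a minimum count of 10 and total of 15, TMM scaling, then robust glmQLFit and glmQLFTest on genotype alone. The common coefficient of variation was 0.128. Log2 CPM used a prior count of 2. SE is the log2 fold change over the square root of F. Within a group, pairs of libraries differed by 10.5 to 33.6 times sampling noise, so none was a copy.

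The 10 genes and the gene lists were chosen with earlier results of these data known. Named genes outside the 10 were, per list, up to 4 called genes of lowest p and, with fewer than 2 called, the 2 most abundant, plus the 5 nearest in pattern, of which 1 is not reported here. The versican partners other than Ugdh were picked after their values were seen. Lists are described by counts and medians, with no set test. Data were simulated for the same 2 against 5 libraries and 14691 genes, with fold changes placed in well-counted genes alone. The test recovered 60.4% of genes changed 1.5-fold, 90.7% of those changed 2-fold and 98.6% of those changed 4-fold. Of its calls 9.75% were false, more than the share of 0.05 at which the threshold is set. Recovery among genes with few counts was not measured. Alternatives were DESeq2 1.42.0, limma-voom (limma 3.58.1), other scalings, filters and thresholds, leaving out each library, a block on replicate number, Xist as covariate, and haemoglobin genes removed. Promoters came from RefSeq GRCm38.p6. Figures used Python 3.11.15 and matplotlib 3.10.9.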

Additional observations from a re-analysis of the deposited data

Results flagged for a closer look

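Each of the 10 genes was checked for a control far from the other 4 by the gap to its nearest neighbour as a share of the controls' range, against a critical value of 0.71 for 5 samples. Chance passes about 1 group in 20. Postn in control replicate 1, at 633 CPM, had a share of 0.722, and without that library its log2 fold change was -1.35. Cthrc1 in control replicate 4, at 8.36 CPM, had a share of 0.738, and without that library its log2 fold change was -3.15. Both genes were called without these libraries.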

How the results depend on the processing

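Of the 10 genes, 4 were called by edgeR, and 3 to 6 under DESeq2, limma-voom, other scalings and filters, Xist as covariate or only the libraries with Xist, and a threshold of 0.1. The count was 1 at a threshold of 0.01 and 1 with control replicate 5 and mutant replicate 2 both removed, and 1 to 5 without 1 library. Vcan turned to -0.27 without mutant replicate 2, also with control replicate 5 removed, and to 1.13 without mutant replicate 1. No other direction among the 10 turned in these fits, and the cause was not tested. For the 116 related genes the count of 6 became 15 under DESeq2, 13 at 0.1, 0 at 0.01, 1 with the pair of libraries removed, 1 with Xist as covariate, 3 in libraries with Xist and 0 to 7 without 1 library. For mesenchyme markers the count of 4 became 9 under DESeq2, 2 under limma-voom, 7 at 0.1, 1 at 0.01, with the pair removed, with Xist as covariate or in libraries with Xist, and 1 to 5 without 1 library. For other cell type markers 5 became 17 under DESeq2, 13 at 0.1, 1 at 0.01, with the pair removed, with Xist as covariate or in libraries with Xist, and 0 to 7 without 1 library. Over all genes 200 became 789 under DESeq2, 119 under limma-voom, 586 at 0.1, 34 at 0.01, 52 with the pair removed, 60 with Xist as covariate, 66 in libraries with Xist and 12 to 275 without 1 library. The median of the 10 genes relative to the mesenchyme markers, 0.02, was -0.14 to 0.17 without 1 library and -0.02 to 0.04 with other prior counts. Where 1 library labelled mutant was left out, the remaining one was assumed to vary like the controls.

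The replicate numbers are shared by the groups for 2 pairs only, whose deviations correlated at 0.0775 and 0.0117, and nothing in the labels says that they pair embryos. Control replicates 3, 4 and 5 have no partner, so a block on replicate number takes the group difference from replicates 1 and 2 alone. Few degrees of freedom are then left, and the p-values of that fit lean on the spread pooled over genes. With the replicate block 5 of the 10 genes, 23 related genes, 9 mesenchyme markers, 21 other markers and 811 of all genes were called. Of the 10, Dcn and Fbln2 were then called at edgeR adjusted p of 7.1e-05 and 0.0363, and Lum was not, at 0.490.

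Cthrc1 and Dpt had 16 to 44 counts in the libraries labelled mutant and 111 to 380 in the controls, at library totals of similar size. The SE of the log2 fold change was largest for Dpt, at 0.53.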
